A study of Bos taurus with 34 samples.

Results

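The genes described here encode the enzymes of phase II conjugation, taken as every gene whose symbol in the authors' deposited table of SLICK against FREE liver starts with UGT, SULT or GST. The rule found 31 genes of the 14161 tested, of which 5 are UGT, 8 are SULT and 18 are GST genes. They stand in 33 rows of the table, because 2 genes were listed under a further symbol of the same families: 1 UGT gene as both UGT1A1 and UGT1A6, and 1 GST gene as both GSTM1 and GSTM2. A further 3 annotated genes with such names, SULT4A1, SULT6B1 and a second SULT1C4 (ENSBTAG00000026672), have no row in the comparison and were not analysed here. The rule used names only and no measured value, though it was chosen with earlier results of these data known.

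Conjugating enzymes attach a polar group to drugs, plant toxins, hormones and bile pigments so that they can leave the liver in bile or urine. UDP-glucuronosyltransferases (UGT) are membrane enzymes of the endoplasmic reticulum that mostly transfer glucuronic acid from UDP-glucuronate. Sulfotransferases (SULT) are cytosolic and transfer sulfate from PAPS, and glutathione S-transferases (GST) join glutathione to electrophiles. The liver is the main site of all 3 reactions, and many of these genes are known to be controlled by hepatocyte factors and by nuclear receptors that sense foreign compounds.

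The livers came from Senepol cattle by breed label, the daughters of 2 bulls, Blanco and Lone Ranger. SLICK daughters carried 1 copy of the SLICK allele of PRLR, the prolactin receptor gene (10 samples, 5 from each bull). FREE daughters carried 0 copies (8 samples, 7 from Lone Ranger and 1 from Blanco). Genotype and sire are therefore partly confounded, and effects of the allele and of the sire cannot be told apart in these values. A second experiment with animals of 1 copy (S1, 5 samples) or 2 copies (S2, 11 samples) was not analysed here. No label gives the age of the animals.

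All values come from the authors' deposited table, since no library column could be tied to a labelled sample, and values per animal were not used. A positive log2 fold change is read from the name of the table as higher in SLICK. The standard error (SE) given with it is approximate: it is the size of the log2 fold change divided by the square root of the authors' F. The 95% intervals use the 18.7 degrees of freedom that F and p imply, and they cover the spread between animals as the authors' model saw it. Depth per sample was not used here. Fewer cells of a type and less RNA per cell cannot be told apart in bulk liver.

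Not one of the 31 conjugating enzyme genes had an adjusted p under 0.05 by the authors' deposited table (0 of 31), where 71 of all 14161 genes did (0.501%). The submitters' processing notes list edgeR as a tool. The count was also 0 of 31 at 0.10 (2.77% of all genes). The smallest adjusted p of a member there was 0.112, for the UGT1A gene, and the largest was 0.944. Of the 31 members, 11 had an unadjusted p under 0.05 there, against 2267 of all genes (16.0%), and 3 had one under 0.01 (6.36% of all genes). Of the 11, 9 were higher in SLICK (7.22% of all genes were higher at that p) and 2 were lower (8.79% of all genes). The 9 were UGT1A1/UGT1A6, UGT2A1, UGT2B10, SULT1A1, SULT1B1, GSTA2, GSTA4, the GSTM1/GSTM2 gene and GSTZ1. The 2 were UGT8 and SULT2A1. Across the 31 members the log2 fold changes of the authors' deposited table had a median of 0.24, and across all genes of -0.01. Of the 27 members that averaged at least 0 log2 CPM (CPM being counts scaled to the size of the library), 10 had an unadjusted p under 0.05 (16.6% of all genes at that level). An adjustment computed anew gave 0 members too, over all genes (0.636% passed) or over those of at least 0 log2 CPM (0.635%). These counts describe the members and are no test of the families.

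**Figure D1:**
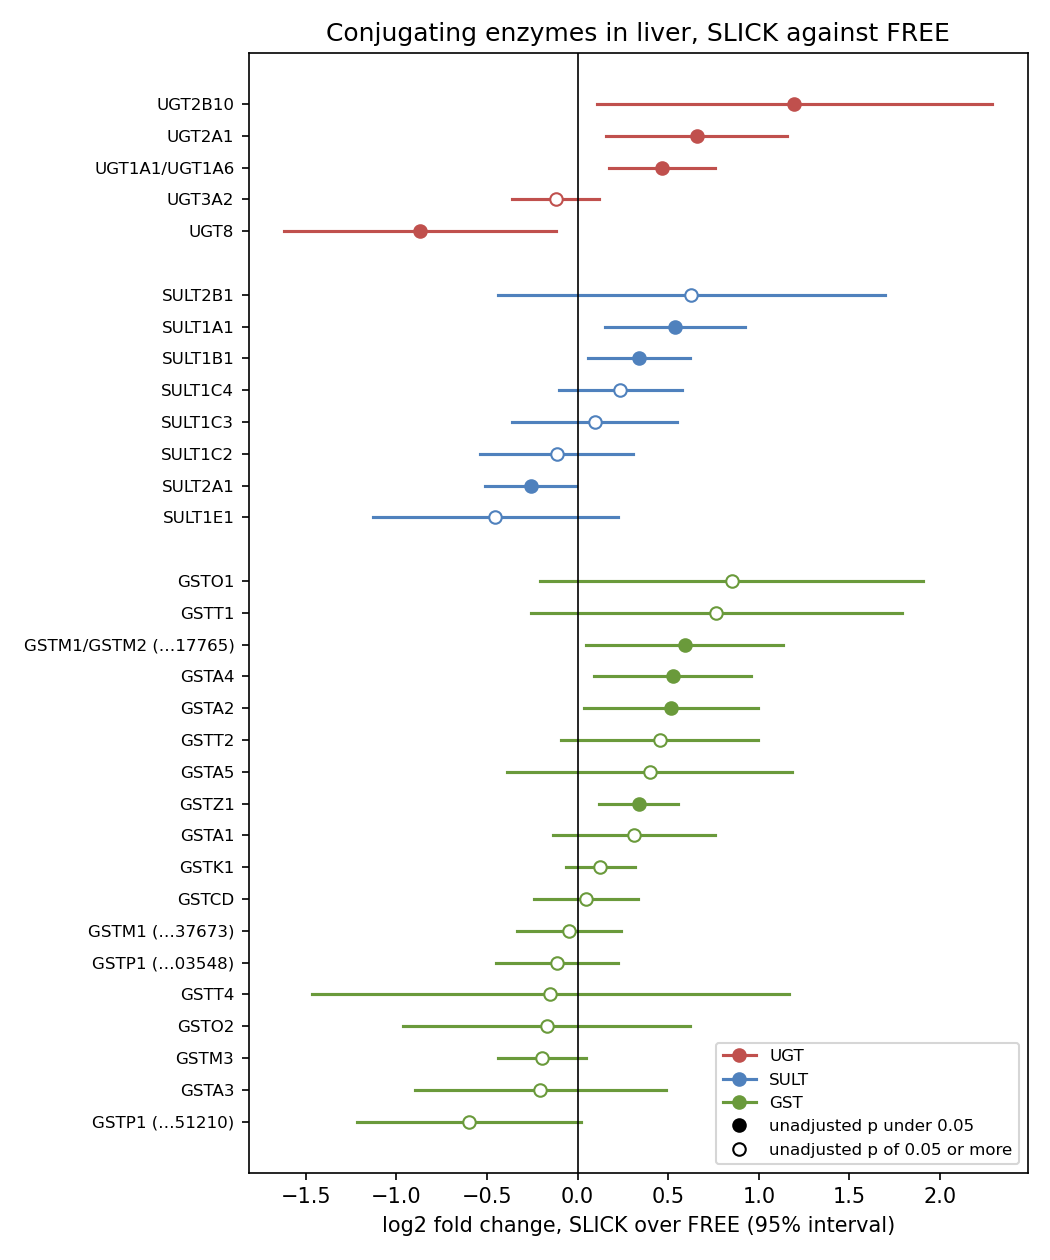
Log2 fold change of SLICK over FREE (horizontal axis) for the 31 genes, by family, with approximate 95% intervals as lines; filled points have an unadjusted p under 0.05. The 9 filled points right of 0 lie in all 3 families, and the 2 left of 0 are UGT8 and SULT2A1.

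Among the UGT genes, the 3 members of the UGT1 and UGT2 subfamilies, which are known for glucuronidation, all had positive values. The UGT1A gene (ENSBTAG00000026181) had a log2 fold change of 0.47 ± 0.14 (SE) in the authors' deposited table, with an unadjusted p of 0.00372. That is 1.38-fold, with an interval from 1.13 to 1.69-fold. UGT1A genes are known for the glucuronidation of bilirubin and of phenols. The gene lies on chromosome 3 of ARS-UCD1.2 from 113300772 to 113425176 on the + strand. Its first exons are known to be alternative and joined to shared later exons, so the single value sums all UGT1A transcripts, and the listed symbols UGT1A1 and UGT1A6 cannot be told apart.

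UGT2B10 had the highest log2 fold change of all 31 genes in the authors' deposited table, 1.2 ± 0.52 (SE, unadjusted p = 0.0332). UGT2B enzymes are known for steroid and bile acid glucuronidation. Its interval ran from 0.11 to 2.29 log2 units, so the size of the difference is poorly fixed. The authors' deposited table gave UGT2A1, first known from olfactory tissue, a log2 fold change of 0.66 ± 0.24 (SE, unadjusted p = 0.0127), or 1.58-fold. Both lie on the - strand of chromosome 6, UGT2B10 from 84443442 to 84464670 and UGT2A1 from 85083386 to 85137347.

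The other 2 UGT genes, which use other sugar donors than glucuronate, had negative values. UGT3A2 had a log2 fold change of -0.12 ± 0.11 (SE) in the authors' deposited table (unadjusted p = 0.310). Its interval, from -0.36 to 0.12, lies wholly below that of UGT1A1/UGT1A6. The difference between the 2 genes was not tested, because their covariance over animals was not used. UGT8, the ceramide galactosyltransferase of myelin lipid synthesis, had a log2 fold change of -0.87 ± 0.36 (SE, unadjusted p = 0.0253) in the authors' deposited table. It averaged -1.91 log2 CPM there, the second lowest of the 31 genes, so its value rests on few reads.

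SULT genes had values of both signs. SULT1A1, the main phenol sulfotransferase of liver, had a log2 fold change of 0.54 ± 0.18 (SE) in the authors' deposited table, with an unadjusted p of 0.00888. That is 1.45-fold, with an interval from 1.11 to 1.90-fold (chromosome 25, 26123609 to 26127457, - strand). SULT1B1, known for sulfating thyroid hormones, had 0.34 ± 0.13 (SE, unadjusted p = 0.0210) in the authors' deposited table. SULT1C4 had a log2 fold change of 0.24 ± 0.16 (SE, unadjusted p = 0.161) there, and the thinly expressed SULT1C2 and SULT1C3 had -0.12 and 0.09 in the authors' deposited table. The SULT1C intervals all hold 0.

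SULT2A1 and SULT1E1, which act on steroids, had negative values, and SULT2B1, which acts on cholesterol, had a positive one. SULT2A1, which sulfates dehydroepiandrosterone and bile acids, had a log2 fold change of -0.26 ± 0.12 (SE, unadjusted p = 0.0440) in the authors' deposited table. Its interval, from -0.51 to -0.01, comes close to 0. SULT1E1, the oestrogen sulfotransferase, had -0.45 ± 0.32 (SE, unadjusted p = 0.175) in the authors' deposited table, with an interval from -1.13 to 0.22. SULT2B1, a cholesterol sulfotransferase best known from skin, had 0.63 ± 0.51 (SE, unadjusted p = 0.232) there. It averaged -0.45 log2 CPM in the authors' deposited table, and its interval ran from -0.44 to 1.70 log2 units.

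The GST genes with an unadjusted p under 0.05 were all higher in SLICK (4 of 18 higher, 0 of 18 lower). Of all genes, 7.22% were higher and 8.79% lower at that p. All 4 averaged at least 6 log2 CPM, as did 10 of the 18 GST genes. At that level 21.5% of all genes were higher and 5.68% lower at that p. The counts are no test of the family. GSTZ1 had a log2 fold change of 0.34 ± 0.10 (SE, unadjusted p = 0.00462) in the authors' deposited table, or 1.26-fold (interval 1.08 to 1.47). It is the maleylacetoacetate isomerase of tyrosine breakdown and lies on chromosome 10 from 88528915 to 88537179. In the alpha class, GSTA4, which conjugates the lipid peroxidation product hydroxynonenal, had 0.52 ± 0.21 (SE, unadjusted p = 0.0201) in the authors' deposited table. GSTA2 had 0.52 ± 0.23 (SE, unadjusted p = 0.0359) there. The authors' deposited table gave GSTA1 and GSTA5 positive log2 fold changes too, 0.31 ± 0.21 and 0.40 ± 0.37 (SE), with intervals that hold 0. GSTA3, which isomerises steroids in steroid-producing tissue, had -0.21 ± 0.33 (SE) in the authors' deposited table.

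The mu class divided between genes that lie next to each other on chromosome 3. The gene listed as both GSTM1 and GSTM2 (ENSBTAG00000017765) had a log2 fold change of 0.59 ± 0.26 (SE, unadjusted p = 0.0352) in the authors' deposited table. A second gene with the symbol GSTM1 (ENSBTAG00000037673) had -0.05 ± 0.14 (SE, unadjusted p = 0.737) there, and GSTM3 had -0.20 ± 0.12 (SE, unadjusted p = 0.105) in the authors' deposited table. The intervals of the 2 GSTM1 genes overlap, from 0.05 to 1.14 and from -0.34 to 0.24 log2 units. The first gene model has 22 separate exon blocks and overlaps another gene of the same strand (LOC100295687), whose log2 fold change was 0.47 in the authors' deposited table. Reads shared among mu class copies could move counts between them, which was not tested.

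In the theta class, the authors' deposited table gave GSTT1 and GSTT2 log2 fold changes of 0.76 ± 0.49 and 0.45 ± 0.26 (SE), with unadjusted p of 0.134 and 0.0987. GSTT4 had -0.15 ± 0.63 (SE) there, the widest error of the 31 genes, and its interval ran from -1.46 to 1.17. In the omega class, whose enzymes act as thiol transferases and reductases, GSTO1 had 0.85 ± 0.50 (SE, unadjusted p = 0.108) in the authors' deposited table. GSTO2 averaged -3.11 log2 CPM there, the lowest of the 31 genes, with a log2 fold change of -0.17 ± 0.38 (SE).

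Both pi class genes, each with the symbol GSTP1, had negative values. The more abundant (ENSBTAG00000051210, chromosome 29, 45441029 to 45444880) had a log2 fold change of -0.60 ± 0.29 (SE, unadjusted p = 0.0572) in the authors' deposited table, the lowest of the GST family. The other (ENSBTAG00000003548) had -0.11 ± 0.16 (SE, unadjusted p = 0.489) there. In liver GSTP1 is known to mark bile duct cells rather than hepatocytes. Of 13 bile duct markers listed, 10 were measured, and the authors' deposited table had all 10 below 0. Their median was -0.56, with 6 at an unadjusted p under 0.05 (all lower, against 8.79% of all genes) and 0 past the adjusted threshold. CLDN4, SPP1 and KRT7 had the smallest p of that list, and the authors' deposited table gave them log2 fold changes of -1.67, -2.44 and -1.03. Their part in the GSTP1 values was not tested.

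The mitochondrial GSTK1 had the narrowest error of the 31 genes, with a log2 fold change of 0.13 ± 0.09 (SE, unadjusted p = 0.181) in the authors' deposited table. Its interval, from -0.06 to 0.32, leaves out a difference of 1 log2 unit in either direction. GSTCD, which holds a GST-like domain and is not known as a conjugating enzyme, had 0.05 ± 0.14 (SE) in the authors' deposited table. For 20 of the 31 genes the whole interval lay within 1 log2 unit of 0. The interval held 0 for 20 genes, the ones without an unadjusted p under 0.05. With the SE of each gene, an unadjusted p of 0.05 needed a log2 fold change of 0.19 to 1.31 (median 0.45). The adjusted threshold needed 0.41 to 2.86 (median 0.98).

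Compared by family, the UGT genes had the highest median of the log2 fold changes that the authors' deposited table gives, 0.47 over 5 genes, against 0.16 over 8 SULT and 0.22 over 18 GST genes. The share with an unadjusted p under 0.05 was 4 of 5 for UGT (3 higher, 1 lower), 3 of 8 for SULT (2 higher, 1 lower) and 4 of 18 for GST (4 higher, 0 lower). Over all genes that share was 16.0% (7.22% higher, 8.79% lower), and the GST share (22.2%) lay not far from it. Among genes of at least 6 log2 CPM it was 27.2%, against 2 of 3 UGT, 2 of 3 SULT and 4 of 10 GST genes. The UGT family also had the widest range, from -0.87 to 1.2 in the authors' deposited table, because UGT8 and UGT2B10 are both members. Values of SULT ran from -0.45 to 0.63 and those of GST from -0.60 to 0.85 in the authors' deposited table. Positive values made up 3 of 5, 5 of 8 and 11 of 18 genes, against 48.2% of all genes. Among genes of at least 6 log2 CPM they made up 2 of 3, 2 of 3 and 8 of 10, against 68.8%. A difference between families was not tested, since genes are not replicates.

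The families also stood at different levels in liver. Levels are the average log2 CPM of the authors' deposited table over the animals of both genotypes, less the log2 of the gene length in kb. On this scale the median was 6.55 for GST, 4.25 for UGT and 3.46 for SULT, against 2.21 for all genes. GSTA2 (9.19) and GSTA1 (9.01) had the highest levels of the 31 genes, followed by SULT1A1 (8.77) and SULT2A1 (8.52). The GSTM1 gene of the smaller model (8.14), GSTM3 (7.99), GSTZ1 (7.64), GSTK1 (7.40) and UGT1A1/UGT1A6 (7.30) came next. The lowest were UGT8 at -4.08 and GSTO2 at -3.28. No spread over animals was used for these levels, so the order of near neighbours such as GSTA2 and GSTA1 is not established. The order also depends on the length correction. By average log2 CPM alone, GSTA1 (9.70), UGT1A1/UGT1A6 (9.63) and the GSTM1/GSTM2 gene (9.53) were highest. The GSTM1/GSTM2 gene, with a model of 8060 bases, had 6.52 per kb.

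A single gene or a pair held most of the level of 2 families. The UGT1A gene made up 75.2% of the summed level per kb of the UGT genes, UGT2A1 11.9%, UGT3A2 9.05% and UGT2B10 3.78%. SULT1A1 and SULT2A1 made up 48.6% and 41.0% of the SULT sum. Their log2 fold changes had opposite signs in the authors' deposited table (0.54 and -0.26). In the GST family GSTA2 made up 23.2%, GSTA1 20.3% and the smaller GSTM1 gene 11.2%. The mean log2 fold change weighted by level was 0.46 for UGT, 0.17 for SULT and 0.29 for GST. Weighted in the same way it was 0.15 over all genes and 0.17 over all genes of at least 6 log2 CPM. The SULT value thus lay near that of genes in general.

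**Figure D2:**
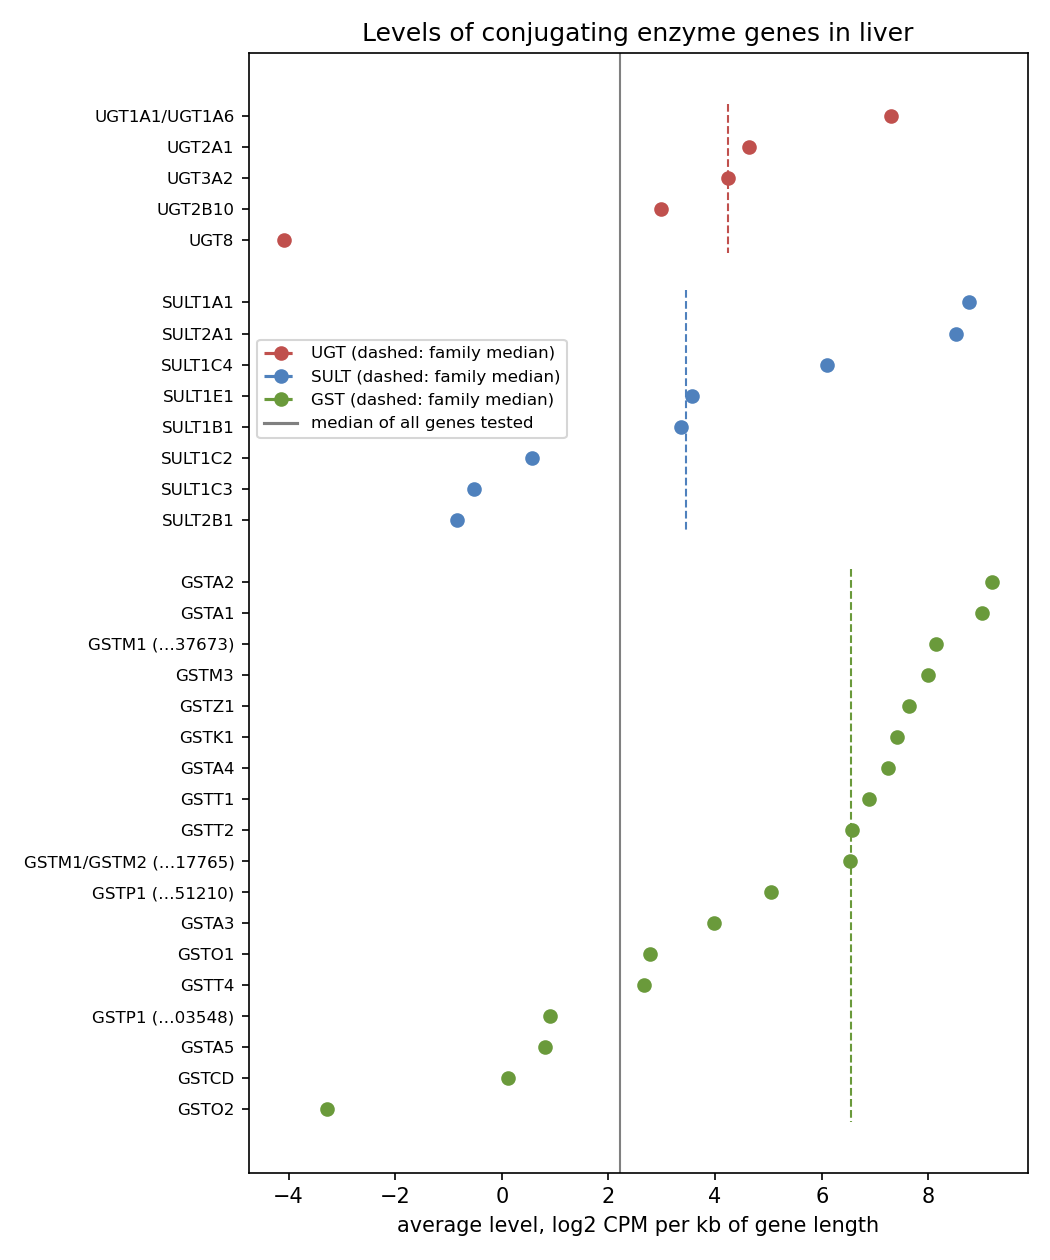
Average level of each gene in log2 CPM per kb of gene length (horizontal axis), ordered within its family; dashed lines are family medians (UGT 4.25, SULT 3.46, GST 6.55) and the grey line is the median of all genes tested (2.21). GSTA2 is highest at 9.19 and UGT8 lowest at -4.08.

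Positive values were more common among abundant genes of any kind. Of the 31 members, 16 averaged at least 6 log2 CPM by the authors' deposited table. Of all 1937 genes at that level, 68.8% had a positive log2 fold change, and 27.2% had an unadjusted p under 0.05 (21.5% higher, 5.68% lower). Among the 16 abundant members, 12 were positive, 7 were higher and 1 was lower at an unadjusted p under 0.05. Their median log2 fold change was 0.39 in the authors' deposited table, against 0.07 for the 1937 genes. The 15 less abundant members had a median of -0.11, with 2 higher and 1 lower at that p. Over the 31 members, Spearman's rho between average log2 CPM and log2 fold change was 0.26 (Pearson's r 0.29). Over all 14161 genes rho was 0.22 (r 0.18). These are descriptions across genes of the same libraries.

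**Figure D3:**
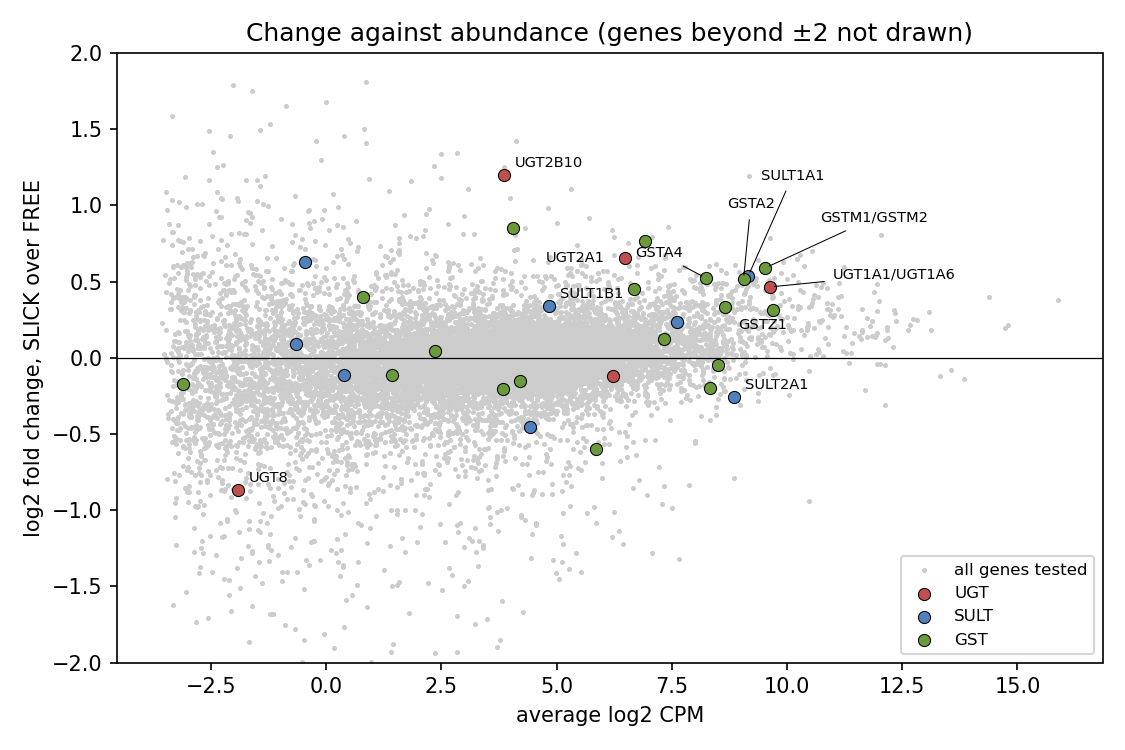
Log2 fold change of SLICK over FREE (vertical axis) against average log2 CPM (horizontal axis) for all genes tested (grey; 46 beyond 2 log2 units in either direction are not drawn) and the 31 members (coloured by family). Names mark members with an unadjusted p under 0.05, of which 8 of 11 lie at 6 log2 CPM or more.

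Most members lie in clusters of related genes. With members less than 1 Mb apart counted as 1 locus, 24 of the 31 genes fell into 8 loci and 7 genes stood alone, on 12 chromosomes in all. In 7 of the 8 loci the neighbours had log2 fold changes of both signs in the authors' deposited table. The exception was the GSTP locus, where both values were negative. Many of these values had intervals that span both signs, among them those of SULT1C2, SULT1E1, SULT2B1, GSTA3, GSTT4 and GSTO2. Of all genes, 48.2% had a positive value, so mixed signs alone mark no locus. The locus on chromosome 6 holds UGT2B10, UGT2A1, SULT1B1 and SULT1E1 over 922 kb, all on the - strand. Their log2 fold changes in that order were 1.2, 0.66, 0.34 and -0.45 in the authors' deposited table. The alpha class cluster on chromosome 23 (25074938 to 25224154) holds 5 genes, of which GSTA3 alone had a negative value. The theta class cluster on chromosome 17 spans 22.6 kb and the mu class cluster on chromosome 3 spans 113 kb.

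**Figure D4:**
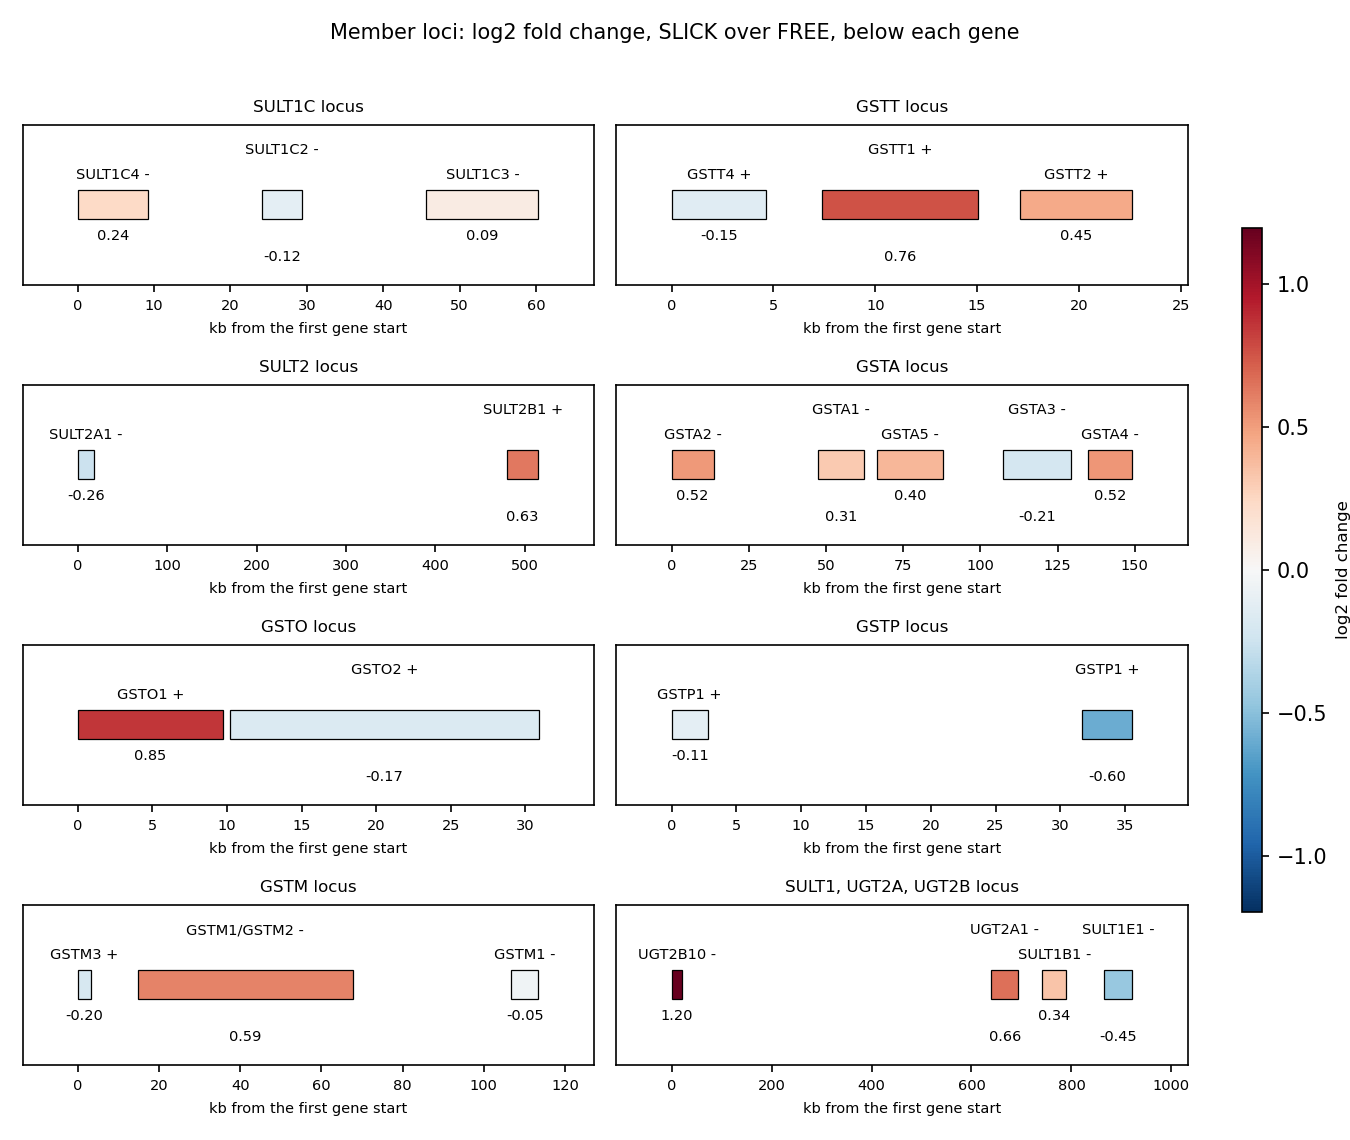
The 8 loci with at least 2 members, drawn to scale in kb from the first gene start, with the strand beside each name and the log2 fold change of SLICK over FREE as colour and number. Red and blue genes lie side by side in 7 loci, and both GSTP1 genes are blue. Colour follows the value alone, whatever its interval.

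Donor supply gave a median near 0 and values of both signs. Of 13 measured genes for UDP-sugars and sulfate, 0 passed the adjusted threshold, 1 was higher and 2 were lower at an unadjusted p under 0.05, and the median log2 fold change was -0.02 in the authors' deposited table. Of all genes, 7.22% were higher and 8.79% lower at that p. UGDH, which makes UDP-glucuronate, had -0.02, UGP2, which makes UDP-glucose, had -0.03, and PAPSS2, which makes PAPS in liver, had -0.08 there. The smallest p was that of BPNT1, which clears the by-product of sulfation, with a log2 fold change of -0.23 (unadjusted p = 0.00159, adjusted p = 0.0876) in the authors' deposited table. PGM1 of glucose phosphate exchange had 0.18 and the PAPS synthase PAPSS1 had -0.20 there. The value farthest from 0 was that of the sulfate carrier SLC13A1, 0.62 (unadjusted p = 0.0667). SLC13A1 averaged -1.89 log2 CPM, and its interval ran from -0.05 to 1.28.

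Of 18 measured genes for glutathione supply, 0 passed the adjusted threshold in the authors' deposited table, with 2 higher and 4 lower at an unadjusted p under 0.05 and a median of 0.04. The shares over all genes at that p were 7.22% higher and 8.79% lower. GCLC, the catalytic subunit of the rate-limiting glutathione step, had a log2 fold change of -0.43 (unadjusted p = 0.0492) in the authors' deposited table, and its partner GCLM had 0.04. GSR, which regenerates glutathione, had -0.25 (unadjusted p = 0.0207) there. CHAC1, which breaks glutathione down, had -0.97 (unadjusted p = 0.00263) at an average of -0.97 log2 CPM in the authors' deposited table. AHCY and IDH1, which serve methionine and NADPH metabolism, had 0.41 and 0.35 there. None of the genes named for glutathione supply passed after adjustment.

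Of 16 other conjugating or detoxifying enzymes measured, 0 passed the adjusted threshold in the authors' deposited table, with 7 higher and 1 lower at an unadjusted p under 0.05 and a median log2 fold change of 0.28. Of all genes, 7.22% were higher and 8.79% lower at that p. Of those of at least 6 log2 CPM, as 9 of the 16 were, 21.5% were higher and 5.68% lower. The authors' deposited table gave GAMT and AS3MT, both methyltransferases, 0.47 and 0.21. The epoxide hydrolase EPHX1 had 0.52 there. The lower gene was GNMT, the glycine methyltransferase of methionine metabolism, at -1.75 (unadjusted p = 0.0108). That value is farther from 0 than any of the 31 members. GNMT averaged -0.90 log2 CPM, and its interval ran from -3.05 to -0.46. With GNMT included the mean of the list was 0.10. Of 6 measured membrane glutathione transferases and relatives, MGST3 had 0.26 (unadjusted p = 0.00319) and MGST1 0.25 (unadjusted p = 0.0348) in the authors' deposited table, while MGST2 had 0.10. In that list 2 were higher and 1 was lower at an unadjusted p under 0.05, against 7.22% and 8.79% of all genes. After adjustment 0 passed. The lower gene was ALOX5AP at -0.73, with an average of -2.04 log2 CPM.

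Enzymes that remove conjugates, other sulfatases and carriers that move conjugates were measured too. Of 9 measured deconjugating enzymes and other sulfatases, 3 were higher and 0 lower at an unadjusted p under 0.05 in the authors' deposited table. After adjustment 0 passed. Of all genes, 7.22% were higher and 8.79% lower at that p. Steroid sulfatase, STS, which reverses the action of SULT1E1 and SULT2A1, had a log2 fold change of 0.98 ± 0.23 (SE, unadjusted p = 5.14e-04, adjusted p = 0.0630) there. Those 2 sulfotransferases had negative values, that of SULT1E1 with an interval from -1.13 to 0.22. The cholesterol sulfotransferase SULT2B1 had a positive value, 0.63, with an interval from -0.44 to 1.70. A joint test of these genes was not made. ACY1, which deacetylates mercapturates, had 0.46 and ARSK, 1 of the other sulfatases, 0.31 in the authors' deposited table. GUSB, the beta-glucuronidase that reverses UGT action, had -0.0044 with an interval from -0.16 to 0.15. Of 11 conjugate carriers, 4 were higher and 0 lower at an unadjusted p under 0.05 in the authors' deposited table, and 0 passed after adjustment. These were ABCC6 (0.49), SLCO2B1 (0.34), ABCC5 (0.33) and ABCG2 (0.18), while the canalicular exporter ABCC2 had 0.04. Of the 11 carriers, 7 averaged at least 6 log2 CPM, where 21.5% of all genes were higher and 5.68% lower at that p.

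Of 20 measured regulators, 1 fell past the adjusted threshold in the authors' deposited table, the vitamin D receptor VDR (-1.33, adjusted p = 0.0210), at an average of -0.14 log2 CPM. At an unadjusted p under 0.05, 5 regulators were higher and 2 were lower there. Of all genes, 7.22% were higher and 8.79% lower at that p, and 0.501% passed the adjusted threshold. NR1I3, the constitutive androstane receptor known to induce UGT1A1 and SULT genes, had a log2 fold change of 0.37 (unadjusted p = 0.00300) in the authors' deposited table, and the fatty acid receptor PPARA had 0.30. The pregnane X receptor NR1I2 had 0.14, the aryl hydrocarbon receptor AHR 0.07 and the glutathione regulator NFE2L2 -0.05 there, with intervals that hold 0.

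**Figure D5:**
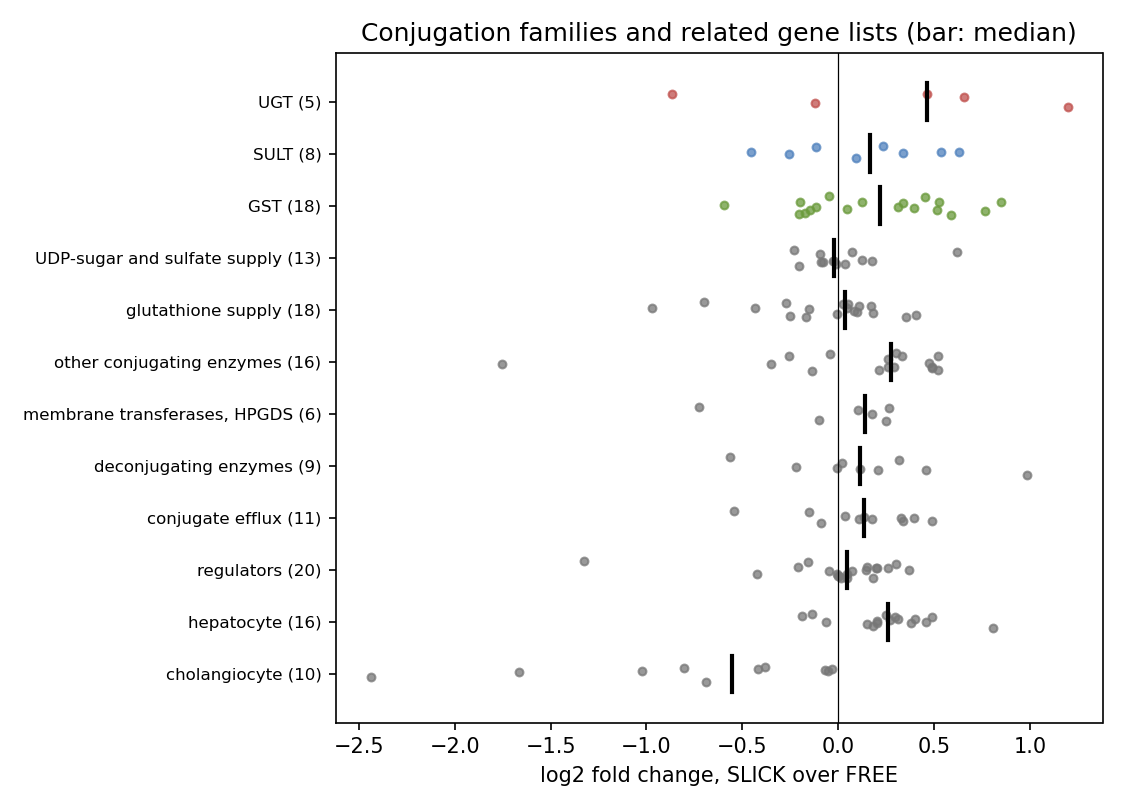
Log2 fold change of SLICK over FREE (horizontal axis) for each measured gene of the 3 families (colour) and of related lists (grey), number of genes in brackets, with the median as a bar. Medians run from -0.56 for bile duct markers to 0.47 for UGT; the medians of both supply lists sit near 0.

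Checked against the tissue label, hepatocyte markers were all measured (16 of 16), and each averaged at least 6 log2 CPM. Albumin averaged 15.9 log2 CPM in the authors' deposited table. Of the 16, 13 had a positive log2 fold change, 6 were higher and 0 lower at an unadjusted p under 0.05, with 0 past the adjusted threshold and a median of 0.26 in the authors' deposited table. Of all genes of at least 6 log2 CPM, 68.8% were positive, and 21.5% were higher and 5.68% lower at that p. Their median was 0.07. The medians of the hepatocyte list, of the abundant conjugating enzymes and of abundant genes in general thus all lay above 0. The part of hepatocyte content in the values of the enzymes was not tested. Macrophage, T and NK cell and endothelial lists had medians of 0.14, 0.04 and 0.11 in the authors' deposited table, and the stellate and fibroblast list had -0.24. The erythroid (3 of 5 measured) and gut epithelium (2 of 4 measured) lists had medians of 0.25 and -0.32 there, each over values of both signs. All 3 erythroid genes averaged under 0 log2 CPM. Of 3 kidney tubule markers 0 were measured.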

How the data were processed

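The 18 TruSeq and 16 SMARTer liver libraries were grouped by genotype and sire as labelled. Alignment and counting tools are known from the submitters' processing notes, which list the ARS-UCD1.2 build, edgeR, Subread, featureCounts and HISAT2 2.1.0 with no role or order. The SMARTer header names featureCounts 1.6.2 and Ensembl release 100 gene models, per the file headers, whose gene positions and lengths were used. The 70 columns of per-library values in 4 tables carry animal numbers that match no label and were not used. Of the 18 animals named in the comparison table, 17 are also named in the TruSeq count table.

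Per gene, the authors deposited the p-value, raw and adjusted, the F score behind it, the log2 fold change and the average log2 CPM. Which terms their model held, sire among them, no source used here says. The 14246 rows held 14161 genes. The denominator degrees of freedom were solved from F and p in 500 genes and gave 18.7 in each. The planned refits of counts could not be made. The code for the SE formula and the adjustment was checked on simulated test statistics. That check cannot show how well the SE suits the authors' model. Alternatives tried were another adjustment, thresholds, a bound on average log2 CPM, membership, summary, centring and length. Python 3.11.15, numpy 2.4.6, pandas 2.3.3, scipy 1.17.1 and matplotlib 3.10.9 were used.

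The members and gene lists were chosen with earlier results of these data known. By rule, members were named for an unadjusted p under 0.05, for level, for extreme values or for their role, and the 3 genes with the smallest p of each pathway list were named; further list genes were named for their role after their values were seen. 1 of the listed genes is not reported here by name. No sequences are shown, since the tables used hold none.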

Additional observations from a re-analysis of the deposited data

How the results depend on the processing

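No conjugating enzyme passed under any adjustment run: the count was 0 with the deposited adjusted p, with Benjamini-Hochberg over the genes kept (smallest adjusted p 0.107), at an adjusted p under 0.10 and with genes of at least 0 log2 CPM only. The 11 members at an unadjusted p under 0.05 became 3 at 0.01 (6.36% of all genes), 10 without GSTCD and UGT8, 10 among genes of at least 0 log2 CPM and 8 among genes of at least 6 log2 CPM, the last chosen after seeing the data. Median log2 fold changes of members and families kept their sign under every summary, filter, membership and centring run. Minus the median of genes of similar level, the median was 0.16 for all members, 0.31 for UGT, 0.12 for SULT and 0.12 for GST. Among genes of at least 0 log2 CPM the SULT median was 0.06. Without length correction the median level was 6.23 log2 CPM for all members (4.64 per kb), 6.23 for UGT, 4.63 for SULT and 6.80 for GST. No paired analysis was possible because the library columns carry no replicate number, and leaving out single animals, other count tests and sire as a term were not run for the same reason. Whether 1 animal carries a value was therefore not tested.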

Other observations

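UGT3A2 lies on chromosome 20 from 38153885 to 38230788, and its end is 741 kb from the start of PRLR, the gene that carries the SLICK allele. Of the 31 conjugating enzyme genes it is the one on that chromosome. PRLR itself had a log2 fold change of -0.05 (unadjusted p = 0.791) in the authors' deposited table. The 3 tested genes between them, named after their values were seen, were CAPSL with -0.47 (unadjusted p = 0.00337), IL7R with -0.03 (unadjusted p = 0.878) and SPEF2 with -0.54 (unadjusted p = 0.0367) in the authors' deposited table. CAPSL and SPEF2 averaged 1.66 and 1.05 log2 CPM there. UGT3A2 overlaps another annotated gene of the same strand (ENSBTAG00000050563), and SULT1A1 overlaps SLX1A, whose log2 fold change was 0.16 in the authors' deposited table.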
